A study of Homo sapiens with 16 samples.

Results

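The formyl peptide receptor cluster holds the genes FPR1, FPR2 and FPR3 side by side on human chromosome 19. Histone H3 acetylated at lysine 27 (H3K27ac), a mark of active promoters and enhancers, was measured there by ChIP-seq. The members were all windows that the deposited table assigned to FPR1, FPR2 or FPR3 with a distance of at most 50000 bp to the transcription start site (TSS). There were 21 such windows among 151654 in all, with 3 assigned to FPR1, 4 to FPR2 and 14 to FPR3. The rule used names and distances and no measured value, but the members were chosen with earlier results of these data known. No further window of these genes lay beyond the limit, and the farthest member was 35313 bp from its TSS. The windows span chr19:51740031-51830959 of hg38. Each window is named here by its gene and the distance of its centre to the TSS in bp, with a minus sign for upstream, so that FPR1 -14 is the promoter window of FPR1. The assignment to a gene is by the nearest TSS and does not say which gene a window acts on.

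THP-1 cells are an established line from a human acute monocytic leukemia. All libraries came from THP-1 cells that carried Cas9, either without a deletion (WT) or with a CRISPR knockout of USP18 (USP18-/-), and both were left untreated or given IFNα at 1000 U/ml for 6 h. USP18 is an inhibitor of type I IFN receptor signaling and removes the ubiquitin-like protein ISG15 from its targets. Each of the 4 groups had 2 H3K27ac libraries, stated to be biological replicates of a cell line. Knockout cells were raised from sorted single cells, and the labels name no clone, so a difference between clones and an effect of USP18 loss cannot be told apart.

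Formyl peptide receptors are G protein-coupled receptors of neutrophils, monocytes and macrophages. FPR1 senses formylated peptides from bacteria and mitochondria and directs chemotaxis and the oxidative burst. FPR2 binds a wide range of peptides and lipids, among them serum amyloid A, annexin A1 peptides and lipoxin A4, and can carry inflammatory or resolving signals. FPR3 responds poorly to formylated peptides, sits largely inside the cell and is found on monocytes, macrophages and dendritic cells.

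Levels are given as CPM, which are window counts scaled to the library size after adjustment by edgeR's TMM factors. In a bulk sample, more cells carrying the mark and more of it per cell cannot be told apart. Summed over all windows, the libraries held between 9046141 and 12935453.5 tags. Of the member windows, 20 reached 10 counts in at least 2 of 8 libraries and were tested, and FPR1 +11366, at 0.182 to 1.13 CPM, did not. The median tested window had a mean of 2.24 CPM. All 9 genes of the myeloid list had a window near the TSS, but at very different levels. SPI1 stood at 64.6 to 131 CPM, CEBPA at 31.4 to 53.0 CPM and MPO at 3.85 to 56.7 CPM, while CD14 stood at 3.18 to 8.83 CPM and CSF1R at 1.55 to 3.27 CPM. Of the 11 marker genes of B, T, erythroid and epithelial cells, 8 had no window within 3000 bp of the TSS. PAX5 and TCF7 reached at most 2.12 and 2.09 CPM, inside the range of CSF1R, and CDH1 at most 1.18 CPM, below it. The promoter window of USP18 itself (USP18 +111) differed by 0.11 between untreated USP18-/- and WT cells on the log2 scale (SE 0.18, edgeR adjusted p = 0.71), and acetylation of a promoter is no check of the deletion in the gene body.

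The sequences of 3 windows are shown first because the largest IFN responses of the cluster, and its FPR1 promoter, lie in them. Each is the central 201 bases of a window, read from hg38 on the plus strand. Bases of a searched motif are in capitals where the whole match lies inside these 201 bases. FPR1 -14 is chr19:51751811-51752011, FPR3 -8301 is chr19:51786745-51786945, and FPR3 -9963 is chr19:51785083-51785283.
FPR1 -14: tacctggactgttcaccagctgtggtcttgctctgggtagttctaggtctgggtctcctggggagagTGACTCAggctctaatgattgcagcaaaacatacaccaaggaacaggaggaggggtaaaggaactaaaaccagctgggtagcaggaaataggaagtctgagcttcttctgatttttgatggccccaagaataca
FPR3 -8301: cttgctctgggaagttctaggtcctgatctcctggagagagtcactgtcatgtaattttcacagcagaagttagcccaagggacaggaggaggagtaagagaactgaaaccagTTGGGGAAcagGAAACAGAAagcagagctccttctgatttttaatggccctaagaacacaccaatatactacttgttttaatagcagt
FPR3 -9963: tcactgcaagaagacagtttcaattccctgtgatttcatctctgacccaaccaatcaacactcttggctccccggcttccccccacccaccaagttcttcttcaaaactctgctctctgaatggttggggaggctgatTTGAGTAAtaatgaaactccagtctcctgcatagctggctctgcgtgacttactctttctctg

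The FPR1 promoter window and the FPR3 -8301 window are related in sequence. Local alignment of the whole windows gave 527 aligned columns in the same orientation, of which 415 were identical (78.7%), with 26 gap columns. The longest identical stretch was 21 bases. Among the 209 pairs of windows that do not overlap, this pair had the second highest alignment score. The highest was that of FPR3 -11605 and FPR3 +35313, with 579 of 695 columns identical (83.3%) and a longest identical stretch of 40 bases. The ChIP reads were sequenced at a length above either identical stretch. How the aligner placed reads from such copies was not tested.

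The search covered 5 motifs on both strands. The ISRE core, the DNA element of many interferon-stimulated genes, was searched as GAAANNGAA. FPR3 -8301 held the match GAAACAGAA at chr19:51786869-51786877, 28 bp from the window centre. At the aligned bases of FPR1 -14, chr19:51751962-51751970, 2 bases differed and no match was present. Counted from 1 at the 5′ end of the match, with the FPR1 base first, these were T5C and G8A. The AP-1 motif, searched as TGANTCA, matched FPR1 -14 at chr19:51751878-51751884, which overlaps the FPR1 start site of RefSeq at 51751879 (GRCh38.p14). The aligned bases of FPR3 -8301 carried G2C and a gap at the end of this heptamer.

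An ISRE core match is common in windows of this size. It was present in 39948 of the 123276 tested windows (32.4%) and in 5 of the 20 tested FPR windows. Besides FPR3 -8301 these were FPR2 -44, FPR2 +14639, FPR3 -11605 and FPR3 +27405. FPR3 -9963 and FPR1 -14 held none. In the central 201 bases it was present in 9.98% of tested windows and in 2 of the FPR windows, FPR3 -8301 and FPR2 +14639. AP-1 matches were in 31.0% of tested windows and 11 FPR windows. C/EBP matches (TTNCNNAA, bound by the granulocyte and monocyte factors of that family) were in 86.0% and 19 windows. PU.1 matches (GAGGAAGT) were in 11.4% and 2 windows, FPR3 -11605 and FPR3 +35313, the most similar pair above. NF-κB consensus matches were in 23.1% and 2 windows, FPR1 -2367 and FPR3 +15277. A match describes these letters only and not binding.

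H3K27ac was uneven along the cluster. The highest mean was at FPR1 -2367, 20.5 CPM over all libraries, above 88.8% of tested windows. FPR3 -8301 followed at 10.0 CPM and FPR1 -14 at 8.17 CPM. Group means of FPR3 -8301 were 34.9 CPM in IFN treated USP18-/- cells and 0.582 to 2.48 CPM in the other groups. The coding exon of FPR3 was covered by FPR3 +29330 and FPR3 +29656, which overlap and share tags, at 7.63 and 7.07 CPM. The FPR2 windows were low, between 0.896 and 1.17 CPM on average. FPR3 had no window at its own TSS, and its nearest were FPR3 +4394 in the intron and FPR3 -8301 upstream.

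**Figure D1:**
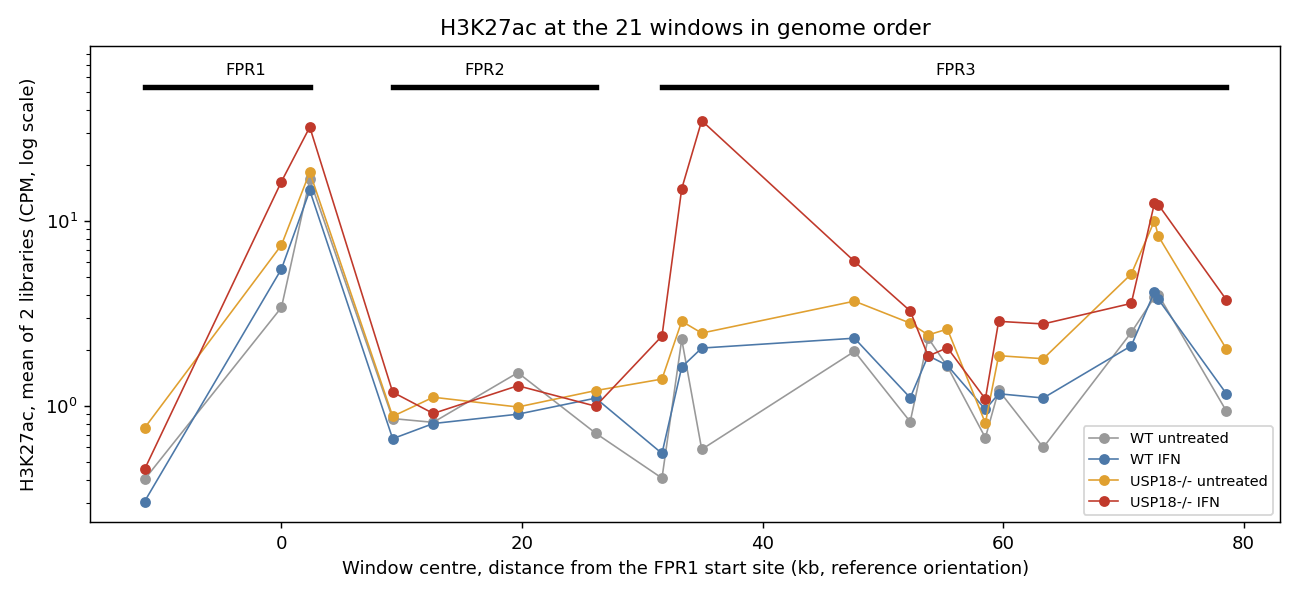
Mean H3K27ac of 2 libraries (CPM, log scale) at each of the 21 windows against the distance of the window centre from the FPR1 start site in kb, with 1 line for each of the 4 groups and black bars for the windows assigned to each gene. IFN treated USP18-/- cells stand above the other groups at FPR1 -14, FPR1 -2367, FPR3 -9963 and FPR3 -8301, while the groups run together over FPR2.

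The annotation places most windows outside exons. In the deposited annotation FPR1 -14 and FPR2 -44 were promoter windows, FPR3 +29330 and FPR3 +29656 lay in exon 2 of 2, and the windows from FPR3 +4394 to FPR3 +27405 lay in intron 1. FPR1 -2367, FPR3 -11605, FPR3 -9963, FPR3 -8301 and FPR3 +35313 were intergenic, as were FPR1 +11366, FPR2 +8172 and FPR2 +14639, and FPR2 +1138 lay in the FPR2 intron. The centre of FPR3 -9963 lay in an LTR8 element of an endogenous retrovirus, and the centres of 6 of the intron windows lay in LTR elements, 3 of them in HERVK3-int. GENCODE v44 has longer transcripts, which place FPR3 -9963 and FPR3 -8301 in an FPR1 intron and let an FPR1 transcript start 59 bp from the centre of FPR3 +9028. There, transcripts of both FPR1 and FPR2 start inside FPR1 -14, and FPR1 -2367 lies in introns of both genes. A call at these windows therefore cannot be given to FPR1 alone.

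The first question was what IFN does at the cluster in WT cells. FPR3 -8301 rose and no other window was called. Replicates 1 and 2 gave 0.620 and 0.545 CPM in untreated WT cells and 2.68 and 1.44 CPM in IFN treated WT cells. The groups did not overlap, and the level with IFN was near the mean of the median window. The log2 fold change was 1.81 (SE 0.44, edgeR adjusted p = 0.018), or 3.53-fold in mean CPM. A window was called when the log2 fold change exceeded 1 in size with an adjusted p under 0.05. This was met by 1 of 20 FPR windows in the higher direction, against 0.344% of all tested windows, and by 0 in the lower direction, against 0.0381%. The call was lost when WT untreated replicate 1, WT untreated replicate 2 or WT IFN replicate 1 was left out (adjusted p of 0.18, 0.28 and 0.55).

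The FPR1 promoter did not pass the test in WT cells. FPR1 -14 stood at 3.10 and 3.72 CPM without IFN and at 4.86 and 6.15 CPM with it. All IFN values were above the untreated ones, with a log2 fold change of 0.68 (SE 0.25, edgeR adjusted p = 0.27). FPR1 -2367 stood at 16.9 and 16.6 CPM without IFN and 16.4 and 12.9 CPM with it (log2 fold change -0.19, SE 0.15, edgeR adjusted p = 0.77). The median log2 fold change of the 20 windows was 0.04, against -0.01 for all tested windows. At an unadjusted p under 0.05, edgeR gave 2 windows higher and 0 lower, against 8.97% of all tested windows in either direction. DESeq2 called 1 higher and 0 lower. In the other 4 contrasts, too, no FPR window was lower at an unadjusted p under 0.05 or by DESeq2.

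The next comparison was of untreated USP18-/- with untreated WT cells. Of the 20 FPR windows, 9 were higher, against 5.66% of all tested windows, and 0 were lower, against 10.8%. They were FPR1 -14 and 8 windows of FPR3. None of the 4 FPR2 windows was called. The median log2 fold change was 0.81, against -0.02 over all tested windows.

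At the FPR1 promoter, FPR1 -14 gave 8.29 and 6.54 CPM in untreated USP18-/- cells, against 3.10 and 3.72 CPM in WT cells. The groups did not overlap, and the log2 fold change was 1.12 (SE 0.23, edgeR adjusted p = 4.3e-05). FPR1 -2367, at 20.0 and 16.7 CPM, overlapped the WT range, with a log2 fold change of 0.13 (SE 0.14, edgeR adjusted p = 0.52). Thus the promoter window was called without IFN and the stronger upstream window was not, a contrast between windows that was not itself tested. The promoter call lay near the fold limit and was lost in 4 of 16 alternatives to the main processing. Dropping single libraries moved the log2 fold change of FPR1 -14 to between 0.93 and 1.27, on either side of that limit.

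Within FPR3, both exon windows and 2 of the 3 upstream windows were higher. FPR3 +29330 gave 2.48 and 5.26 CPM in WT and 9.16 and 10.9 CPM in USP18-/- cells (log2 fold change 1.34, SE 0.22, edgeR adjusted p = 5.3e-07). The overlapping FPR3 +29656 gave 2.996 and 4.99 CPM in WT and 7.42 and 9.14 CPM in USP18-/- cells (log2 fold change 1.03, SE 0.23, edgeR adjusted p = 0.00012). In both windows the knockout libraries lay above the WT libraries, though the WT replicates differed from each other. FPR3 -8301 gave 2.36 and 2.60 CPM, a log2 fold change of 2.07 over WT (SE 0.42, edgeR adjusted p = 3.1e-05). FPR3 -11605 gave 1.83 and 0.962 CPM, against 0.723 and 0.0908 CPM in WT (log2 fold change 1.83, SE 0.58, edgeR adjusted p = 0.0090). The third, FPR3 -9963, gave 3.14 and 2.60 CPM against 2.58 and 2.00 CPM in WT and was not called (log2 fold change 0.34, SE 0.31, edgeR adjusted p = 0.44). These upstream levels were low, near or under the median window. The other 4 called windows, FPR3 +9028, +20091, +27405 and +35313, had log2 fold changes of 1.05 to 1.77 and adjusted p of 0.00022 to 0.028.

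Many of these values rested on single libraries. FPR3 -11605 had 1 tag in WT untreated replicate 2, and its log2 fold change was 3.80 without WT untreated replicate 1, 0.95 without WT untreated replicate 2 and 1.28 without USP18-/- untreated replicate 1, with the call lost in the last 2 cases. FPR3 +20091 went to 0.71 without WT untreated replicate 1, to 3.96 without WT untreated replicate 2 and to 1.23 without USP18-/- untreated replicate 2, and only the second of these kept the call. FPR3 +27405 went to 0.77 and FPR3 +35313 to 0.70 without WT untreated replicate 2, and to 0.79 and 0.84 without USP18-/- untreated replicate 2, and neither was then called. FPR3 +29330 went to 0.92 and FPR3 +29656 to 0.72 without WT untreated replicate 1, under the fold limit, and FPR3 +29656 to 0.87 without USP18-/- untreated replicate 2. FPR3 +29330 was 2.00 without WT untreated replicate 2. FPR3 -8301 and FPR3 +9028 kept their calls whichever library was left out.

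**Figure D2:**
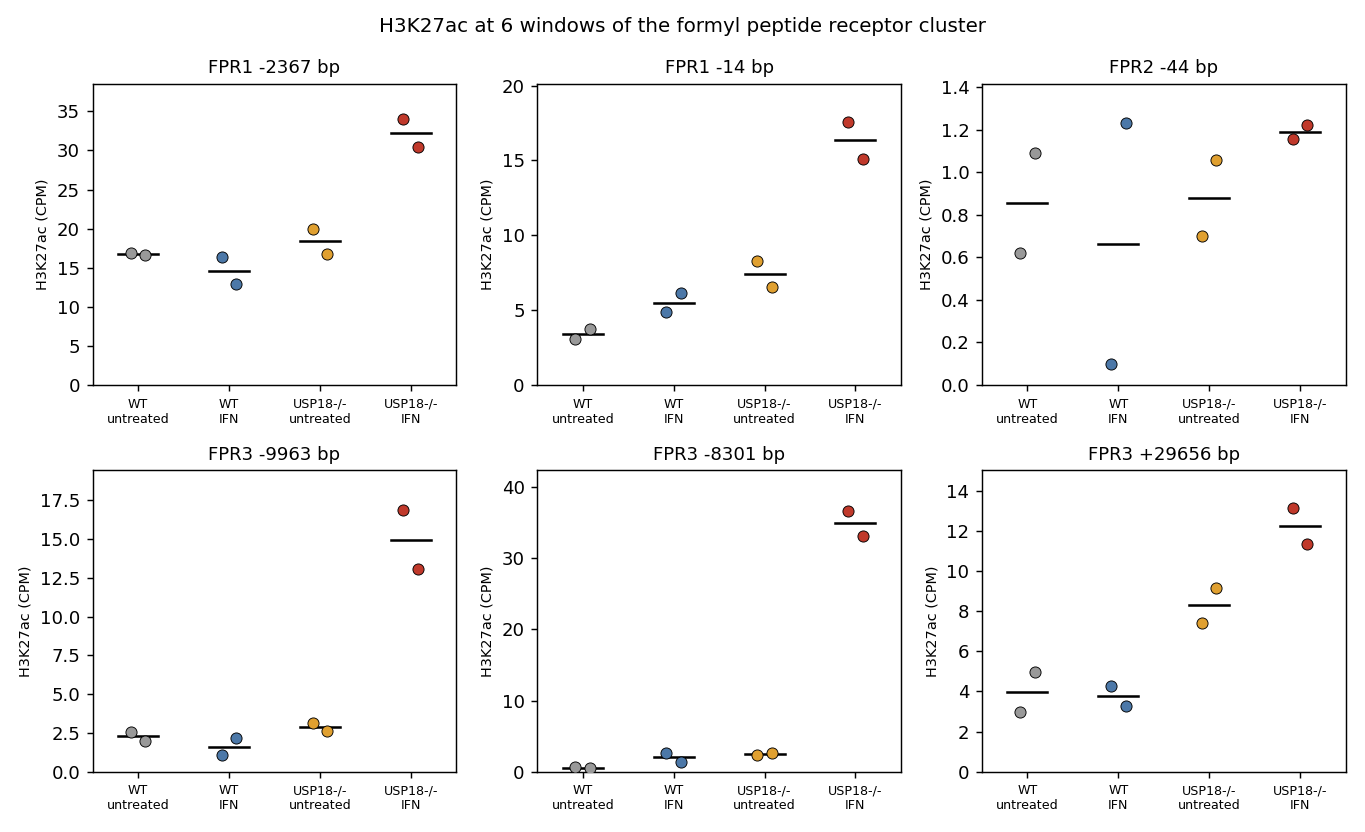
H3K27ac (CPM, linear axes from 0) in each library at 6 windows, with 1 panel per window, 1 point per library and a bar at the mean of 2. FPR3 -8301 and FPR3 -9963 are high in IFN treated USP18-/- cells alone, FPR3 +29656 is already higher in untreated USP18-/- cells, and the FPR2 -44 values lie between 0.0991 and 1.23 CPM with overlap.

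Several of these calls were near the thresholds. With library sizes from the sum of counts, which moves the median of all windows to -0.16, 5 FPR windows were called, and without WT untreated replicate 1 the number was also 5. DESeq2 called 6. With windows within 3000 bp of a TSS scaled and tested apart from the rest, FPR1 -14 fell to a log2 fold change of 0.81. Windows near a TSS had a median of 0.30 in this contrast and the rest had -0.14.

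Windows of other genes around the cluster were also called higher in USP18-/- cells. Within 500000 bp on either side of the cluster, 83 tested windows of other genes had a median log2 fold change of 0.64, with 22 higher and 1 lower, against 5.66% and 10.8% of all tested windows. The largest of these were SIGLEC8 -2214 at 3.55, SIGLEC8 -3831 at 3.17 and SIGLEC8 -3423 at 3.01, from a gene for a sialic acid-binding receptor. Over all 4996 tested windows of chromosome 19 the median was 0.36, and 70.9% were above 0. The copy number of the region was not measured here, and its part in the result was not tested.

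The effect of IFN was then examined in USP18-/- cells. Of the 20 FPR windows, 3 rose, against 7.14% of all tested windows, and 0 fell, against 4.28%. They were FPR3 -8301, FPR3 -9963 and FPR1 -14. Among these, FPR3 -8301 alone held an ISRE core match, and none of the other FPR windows with a match was called here. FPR3 -8301 reached 36.7 and 33.1 CPM from 2.36 and 2.60 CPM, which made it the highest FPR window in these libraries. The rise was 14.1-fold in mean CPM, with a log2 fold change of 3.81 (SE 0.20, edgeR adjusted p = 1.3e-30). FPR3 -9963, the LTR8 window, reached 16.9 and 13.1 CPM from 3.14 and 2.60 CPM. This was a log2 fold change of 2.37 (SE 0.22, edgeR adjusted p = 1.4e-15). The highest value in any other group was 3.14 CPM at FPR3 -9963 and 2.68 CPM at FPR3 -8301.

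FPR1 -14 reached 17.6 and 15.1 CPM with IFN in USP18-/- cells. The log2 fold change was 1.13 (SE 0.18, edgeR adjusted p = 1.3e-07), just over the 2-fold limit. It was 0.98 without USP18-/- untreated replicate 2 and 1.00 without USP18-/- IFN replicate 1. FPR1 -2367 reached 34.0 and 30.4 CPM from 20.0 and 16.7 CPM. Its log2 fold change of 0.81 (SE 0.13, edgeR adjusted p = 3.1e-07) was under the fold limit although the groups did not overlap. Without a fold limit, 7 FPR windows passed at an adjusted p under 0.05, all of them higher. Of all tested windows, 24.2% passed in either direction.

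The exon and intron windows of FPR3 moved less. FPR3 +29656 reached 13.1 and 11.4 CPM, a log2 fold change of 0.57 (SE 0.19, edgeR adjusted p = 0.016). The FPR3 windows downstream of the TSS had log2 fold changes of -0.51 to 0.89, and none of the 11 was called. FPR3 -11605, upstream of the LTR8 window, gave 1.86 and 2.91 CPM (log2 fold change 0.75, SE 0.41, edgeR adjusted p = 0.20). The median over the 20 windows was 0.50, against -0.01 over all tested windows.

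**Figure D3:**
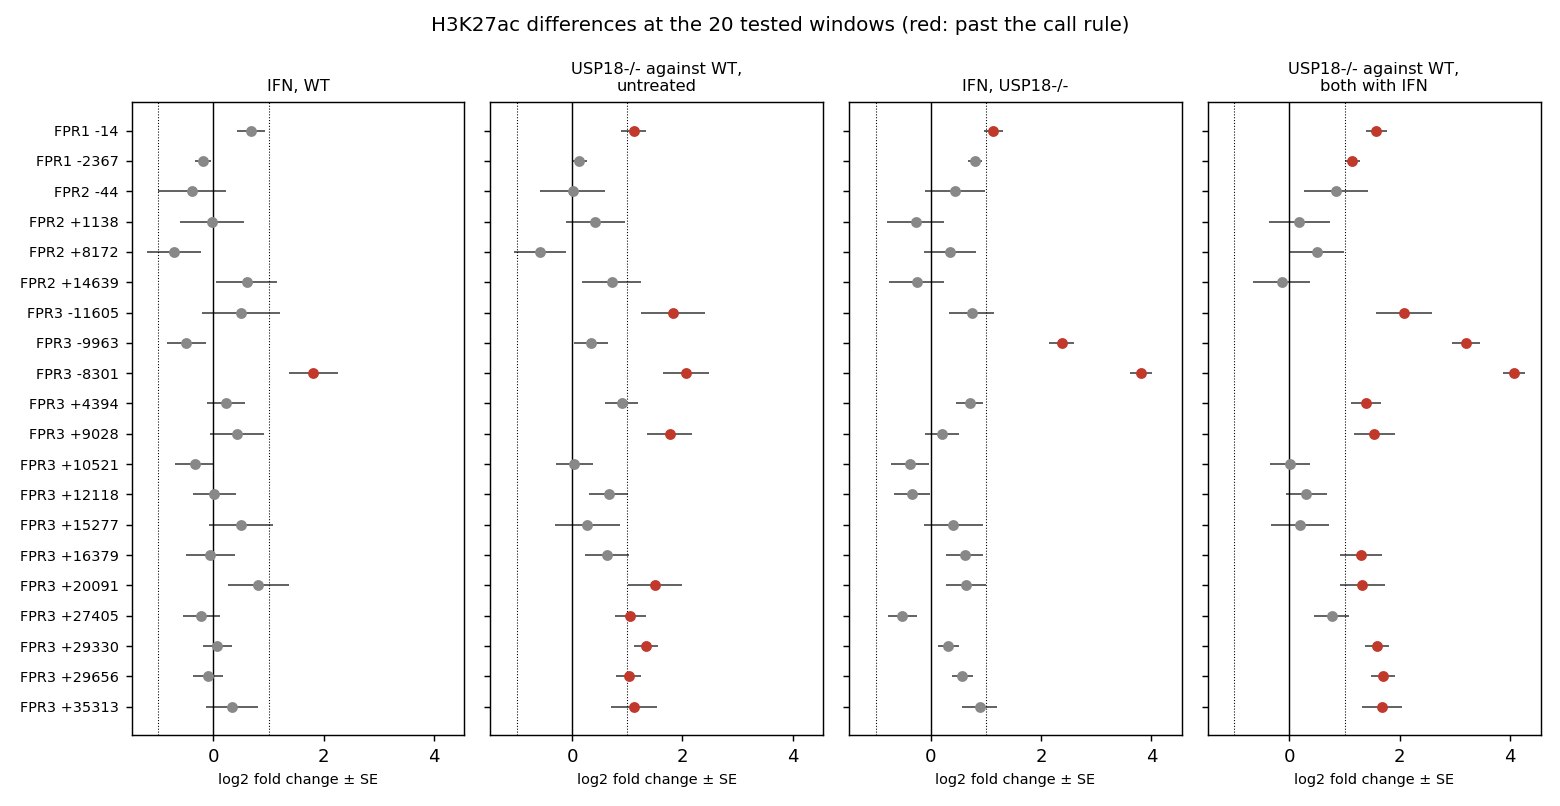
Log2 fold change of H3K27ac with its SE (horizontal bars) at the 20 tested windows, in genome order from top to bottom, for IFN in each genotype and for USP18-/- against WT without and with IFN. Red points passed the call rule (1, 9, 3 and 12 windows from left to right), dotted lines mark a log2 fold change of 1 in size, and no FPR2 window is red.

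The largest number of calls came from USP18-/- against WT with IFN in both. Of the 20 windows, 12 were higher, against 11.3% of all tested windows, and 0 were lower, against 13.4%. They were FPR1 -14, FPR1 -2367 and 10 windows of FPR3. FPR3 -8301 differed 17.0-fold in mean CPM, with a log2 fold change of 4.07 (SE 0.21, edgeR adjusted p = 7.6e-31). FPR3 -9963 had 1.09 and 2.15 CPM in IFN treated WT cells and differed by 3.21 on the log2 scale (SE 0.26, edgeR adjusted p = 2.0e-19). FPR1 -14 differed by 1.57 (SE 0.19, edgeR adjusted p = 2.0e-11) and FPR1 -2367 by 1.14 (SE 0.14, edgeR adjusted p = 1.6e-11).

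The other 8 called windows of FPR3 ran along the gene from FPR3 -11605 to FPR3 +35313. Their log2 fold changes were between 1.30 and 2.08. FPR3 +4394, the intron window nearest the TSS, gave 1.98 and 2.67 CPM in WT and 6.66 and 5.45 CPM in USP18-/- cells (log2 fold change 1.38, SE 0.27, edgeR adjusted p = 1.3e-05). FPR3 +35313 gave 0.892 and 1.44 CPM in WT and 3.55 and 3.94 CPM in USP18-/- cells (log2 fold change 1.68, SE 0.36, edgeR adjusted p = 5.4e-05). The intron windows at FPR3 +10521, +12118 and +15277, in endogenous retrovirus elements of the ERVK group, were not called and had log2 fold changes of 0.00 to 0.31. FPR3 +16379, also in an ERVK element, was called at 1.30 (SE 0.37, edgeR adjusted p = 0.0029), and lost the call without WT IFN replicate 1 (0.99). FPR3 +9028 lost it without USP18-/- IFN replicate 2 (1.11), FPR3 +20091 without WT IFN replicate 2 (0.997) or USP18-/- IFN replicate 1 (1.15), and FPR1 -2367 without WT IFN replicate 2 (0.98). The median of the 20 windows was 1.31, against 0.00 over all tested windows. The median of the 83 neighbouring windows was 0.69, with 30 called higher and 5 lower.

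Whether the IFN effect differed between genotypes was tested directly, with all 8 libraries in 1 fit. The difference was called at 3 of 20 FPR windows in the higher direction, against 4.66% of all tested windows, and at 0 in the lower direction, against 2.51%. At FPR3 -9963 IFN changed WT cells by -0.49 (SE 0.36, edgeR adjusted p = 0.75) and USP18-/- cells by 2.37, and the difference was 2.87 (SE 0.43, edgeR adjusted p = 1.5e-07). At FPR3 -8301 the difference was 2.00 (SE 0.59, edgeR adjusted p = 0.013). It lost its call when WT untreated replicate 1, WT untreated replicate 2 or WT IFN replicate 2 was left out (adjusted p of 0.13, 0.088 and 0.067). At FPR1 -2367 the difference was 1.00 (SE 0.20, edgeR adjusted p = 6.6e-05), at the fold limit, and it fell under that limit in 8 of 15 alternatives. For FPR1 -14 it was 0.45 (SE 0.31, edgeR adjusted p = 0.43), so a different IFN effect was not shown at the promoter itself.

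FPR2, by its assigned windows, was called in none of the 5 contrasts by edgeR or DESeq2. None of its windows reached an unadjusted p under 0.05. Its promoter window FPR2 -44 gave 0.620 and 1.09 CPM in untreated WT, 0.0991 and 1.23 CPM in IFN treated WT, 0.698 and 1.06 CPM in untreated USP18-/- and 1.15 and 1.22 CPM in IFN treated USP18-/- cells. The IFN treated USP18-/- libraries lay above those of both untreated groups and overlapped IFN treated WT cells, whose replicates held 1 and 11.5 tags. All FPR2 windows held at most 17 tags in a library. Their log2 fold changes were -0.72 to 0.61 for IFN in WT, -0.58 to 0.72 for untreated USP18-/- against WT, -0.27 to 0.44 for IFN in USP18-/- and -0.14 to 0.84 for USP18-/- against WT with IFN. The SE were 0.47 to 0.62. For the difference of the IFN effects the log2 fold changes were -0.86 to 1.07, with SE of 0.68 to 0.82. A 2-fold change could therefore be missed at this depth. Without WT IFN replicate 2, FPR2 -44 passed in USP18-/- against WT with IFN at 3.43 (edgeR adjusted p = 0.0077), against the single library with 1 tag.

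**Figure D4:**
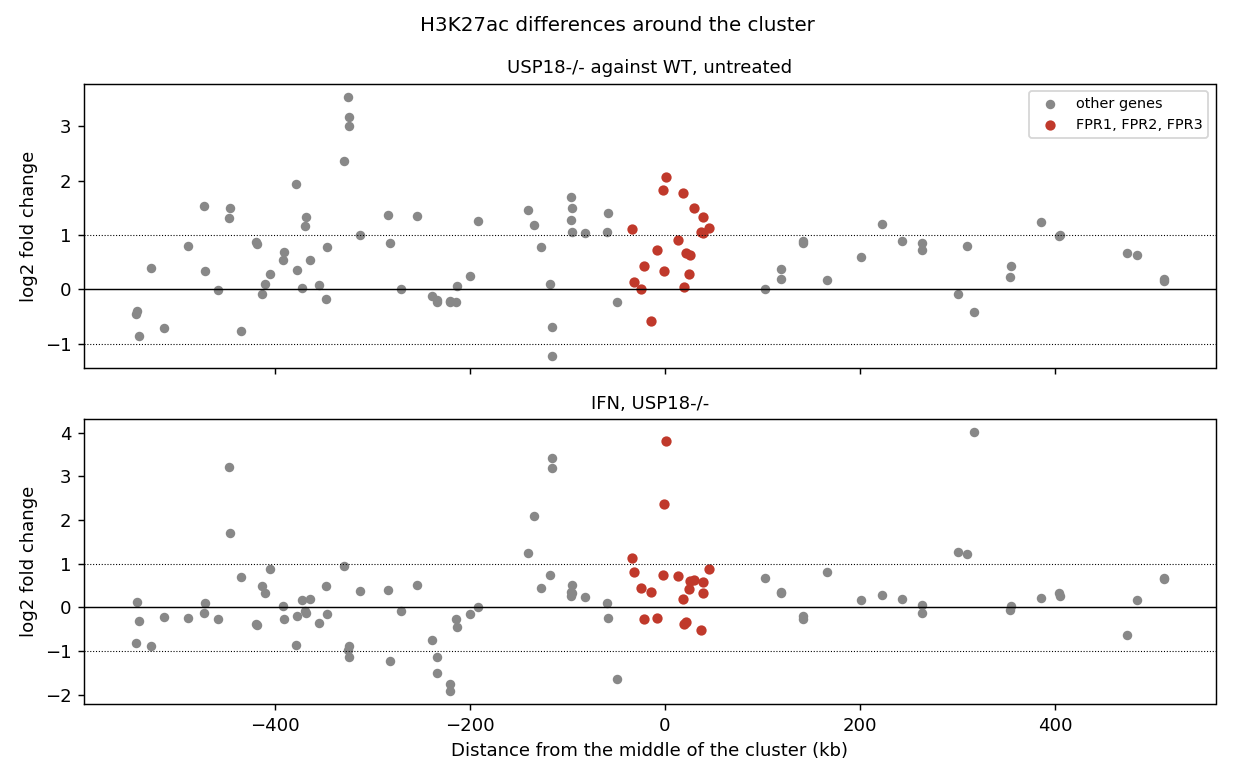
Log2 fold change of H3K27ac at windows of the cluster (red, 20) and of other genes within 500000 bp of its edges (grey, 83) against the distance from the middle of the cluster in kb, for untreated USP18-/- against WT (top) and IFN in USP18-/- cells (bottom). Dotted lines mark a log2 fold change of 1 in size. In the top panel most points of both colours lie above 0. In the bottom panel most lie near 0, with single high windows at the cluster and on either side and some low windows of other genes.

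IFN responses in USP18-/- cells were also present beside the cluster. Of the 83 neighbouring windows, 9 rose and 7 fell, against 7.14% and 4.28% of all tested windows, with a median of 0.09. The largest were ZNF841 -6359 at 4.01, from a zinc finger gene, SPACA6 -19627 at 3.43, from a sperm membrane protein gene, and VSIG10L +3059 at 3.21. In WT cells edgeR and DESeq2 called 0 of the 83 windows for IFN, with 4 higher and 6 lower at an unadjusted edgeR p under 0.05. In the difference of the IFN effects, 6 were higher and 4 lower.

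Other genes of the pathway were described by windows within 10000 bp of the TSS. The 15 other chemoattractant receptors, such as the complement receptors C5AR1 and C3AR1 and the chemokine receptors CCR1 and CX3CR1, had 59 tested windows. The shares of all tested windows given above for each contrast are the background for these counts too. In untreated USP18-/- against WT cells 15 were higher, from only 5 of the 15 genes, and 1 was lower. Some windows of the same gene overlap. The largest were at CX3CR1 -2923 (log2 fold change 2.77), C5AR1 +1208 (2.64) and CMKLR1 +6750 (1.79). For IFN in WT cells edgeR and DESeq2 called 0 windows, with 7 higher and 7 lower at an unadjusted edgeR p under 0.05, and IFN in USP18-/- cells raised 5 and lowered 6, against 7.14% and 4.28% of all tested windows. The rises were largest at CCR1 -5074 (2.90) and CCR1 -6496 (1.74), followed by C3AR1 +3 (1.57). With IFN in both genotypes 23 were higher, from 6 genes, and 2 lower, from 2 genes. The difference of the IFN effects was called higher at 4 and lower at 1.

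Of 8 genes for ligands and their precursors, 7 had windows, with 27 tested. Over all tested windows, 5.66% and 10.8% were called higher and lower in untreated USP18-/- against WT, and 7.14% and 4.28% for IFN in USP18-/-. The shares were 11.3% and 13.4% for USP18-/- against WT with IFN, and 4.66% and 2.51% for the difference of the IFN effects. Against untreated WT cells, untreated USP18-/- cells had 0 windows higher and 7 lower, from the 3 genes CTSG, ANXA1 and APP, and the largest falls were at CTSG -5847 (-2.13), of the granule protease cathepsin G, and at ANXA1 +2302 (-1.61) and ANXA1 +4691 (-1.48), of annexin A1. IFN in USP18-/- cells raised 2 and lowered 3, all 3 at CTSG, with CTSG -678 at -1.71. With IFN in both genotypes 3 were higher and 12 lower. The difference of the IFN effects was called at CTSG -678 (-1.35) and, in the higher direction, at NAMPT +58 (1.20). For IFN in WT cells edgeR and DESeq2 called 0 of the 27, with 1 higher and 2 lower at an unadjusted edgeR p under 0.05.

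Downstream signaling genes were mixed. The 25 genes for G proteins, PI3K and motility had 104 tested windows of 24 genes. In untreated USP18-/- against WT cells 9 were higher and 3 lower, against 5.66% and 10.8% of all tested windows. ARRB1 +978 (1.78), of an arrestin, was among those higher. For IFN in WT cells edgeR and DESeq2 called 0 windows, with 3 higher and 5 lower at an unadjusted edgeR p under 0.05. In USP18-/- cells IFN raised 2 and lowered 3, against 7.14% and 4.28% of all tested windows. The largest changes were GNB2 +6610 at 1.57, PIK3CD -6385 at 1.55 and GRK2 +2090 at -1.22. With IFN in both genotypes 13 were higher and 10 lower, against 11.3% and 13.4%. The difference of the IFN effects gave 2 in each direction, against 4.66% and 2.51%. The 5 genes of the phagocyte NADPH oxidase, the enzyme of the oxidative burst, had 14 tested windows. Of these, 2 were higher and 0 lower without IFN, both at NCF4, and 4 were higher and 0 lower with IFN in both genotypes. The shares just given for each contrast are the background here too. IFN in USP18-/- cells lowered 1, CYBB +3466 (-1.15), and neither IFN in WT cells nor the difference of the IFN effects gave a call by edgeR or DESeq2, with 0 windows and 4 windows at an unadjusted edgeR p under 0.05.

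For each FPR gene's strongest window the most similar genes were listed, each by its window nearest the TSS, within 3000 bp. Similarity was Pearson's r of log2(CPM + 0.5) over the 8 libraries, as a description over 12213 genes. The strongest window had the highest mean over all libraries, which for FPR3 -8301 rests on IFN treated USP18-/- cells. The libraries fall into 4 groups, so r mostly follows the order of the group means. For FPR3 -8301 they were APOBEC3G (r = 1.00), MOV10, FBXW9, ATP13A1 and MASTL, and 1048 genes had an r above 0.9. The APOBEC3G window stood at means of 9.09 CPM in untreated WT, 13.5 in IFN treated WT, 14.4 in untreated USP18-/- and 49.0 in IFN treated USP18-/- cells. For FPR1 -2367 they were CDC40 (r = 0.993), TMEM106B, ARCN1, MOB1A and PISD, with 733 genes above 0.9. For FPR2 +8172, the strongest but still weak FPR2 window, they were ADIRF (r = 0.932), SPATA13, CCDC88A, RPS27 and USP13, and 3 genes were above 0.9.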

How the data were processed

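H3K27ac ChIP-seq libraries of WT and USP18-/- THP-1 cells, with and without IFNα, were used, 2 in each of 4 groups. The authors mapped reads to hg38 with Bowtie2 and used HOMER to count raw tags in 1000 bp windows at pooled ATAC-seq peaks. The deposited values are estimated counts (tags with fractions, not normalized), of which 52.2% came out whole, and 0.5 was rounded up for the tests. Windows with at least 10 counts in at least 2 libraries (123276) were scaled by TMM and tested with edgeR 4.0.16 (quasi-likelihood, 1 mean per group, Benjamini-Hochberg adjustment over all tested windows) in R 4.3.3. Calls needed a log2 fold change over 1 in either direction with an adjusted p under 0.05. The smallest library held 9082433 rounded counts, and the common biological coefficient of variation was 0.0737, which rests on spread shared across windows with 2 libraries per group. DESeq2 1.42.0 was an alternative.

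All 123276 windows lay within the chromosomes of the hg38 reference, and the RefSeq promoter sequences of FPR1 and FPR2 were found there unchanged. Motifs were exact matches. Windows were aligned in pairs with Biopython 1.88 on both strands, and figures used matplotlib. The steps were tested on simulated data. The members and gene lists were chosen with earlier results of these data known. Named windows were the members and, for the lists and neighbours, at most the 3 called windows with the largest fold change in each contrast, except that the windows of 1 gene are not reported here. SAA1 and GNG2 had no window and were not analysed here, nor were input libraries. The mapping left 0 value columns unassigned.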

Additional observations from a re-analysis of the deposited data

Results flagged for a closer look

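The effect of IFN differed between USP18-/- and WT cells at 3 windows, by the test of the difference itself. For FPR3 -9963 the difference was 2.87 on the log2 scale (SE 0.43, edgeR adjusted p = 1.5e-07), for FPR3 -8301 it was 2.00 (SE 0.59, edgeR adjusted p = 0.013), and for FPR1 -2367 it was 1.00 (SE 0.20, edgeR adjusted p = 6.6e-05). The call at FPR1 -2367 lay at the fold limit and was lost in 8 of 15 alternatives, 4 of them with 1 library left out (WT untreated replicate 1, WT IFN replicate 2, USP18-/- untreated replicate 2 or USP18-/- IFN replicate 1), where the difference was 0.85 to 0.99. The call at FPR3 -8301 was lost in 3 of 15, without WT untreated replicate 1, WT untreated replicate 2 or WT IFN replicate 2 (adjusted p of 0.13, 0.088 and 0.067). That at FPR3 -9963 was kept in all 15. In each case both USP18-/- IFN libraries lay above every other library, with 16.9 and 13.1 CPM at FPR3 -9963, 36.7 and 33.1 CPM at FPR3 -8301 and 34.0 and 30.4 CPM at FPR1 -2367.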

How the results depend on the processing

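Groups of 2 libraries and, at many windows, few tags set the precision. The windows higher in IFN treated WT cells numbered 0 to 1 with each library left out in turn, those higher in untreated USP18-/- against WT cells 5 to 9, and those with a higher difference of the IFN effects 1 to 3. For untreated USP18-/- against WT cells, sizes from the sum of counts left 5 higher windows, and a limit of 10000 bp from the TSS left 3. With that limit, 6 were higher in USP18-/- against WT cells with IFN, since fewer windows then enter. For IFN in USP18-/- cells, dropping the fold threshold gave 7 higher windows, against 24.2% of all tested windows in either direction. All other counts stayed within 1.5 times under every alternative run. The sum of counts moved the median of all windows to -0.16 for untreated USP18-/- against WT, -0.14 for IFN in USP18-/- and -0.27 for USP18-/- against WT with IFN.

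FPR1 -2367, not called between untreated genotypes, turned to -0.0097 with the sum of counts, to 0.00 without USP18-/- untreated replicate 1 (range -0.0015 to 0.25 over the libraries left out) and to -0.18 with windows near and far from a TSS tested apart. Its difference of the IFN effects ranged from 0.85 to 1.18, on either side of the fold limit. No called window changed direction. FPR3 -8301 stayed between 3.68 and 3.89 for IFN in USP18-/- cells and between 1.63 and 2.52 for the difference.

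Replicate numbers did not pair the libraries, as deviations of same-numbered libraries correlated at 0.0019 to 0.058. With the replicate block, 1, 9, 3, 12 and 3 windows were higher in the 5 contrasts and 0 lower, and no call changed.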
